A study of Mus musculus with 8 samples.

Results

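The genes described here are the subunits of the proteasome, its activators and its assembly chaperones, taken as every row whose symbol starts with Psma to Psmg followed by a number. The rule found 49 genes of the 20258 named genes in the table. Of these, 48 could be tested, because Psmb11 was listed at 0 in every library. The 49 comprise 5 immunoproteasome members (Psmb8, Psmb9, Psmb10, Psme1 and Psme2), 31 constitutive subunits of the 20S core and the 19S cap, and 13 others. Psmc3ip matches the rule by its symbol but encodes a partner of meiotic recombinases, not a proteasome subunit. No member shared its row of values with another member.

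Macrophages were derived from C57BL/6 bone marrow and then exposed for 24 h to LPS plus IFNg (bacterial lipopolysaccharide together with interferon gamma), exposed to IL4, or left without stimulus. There were 3 LPS plus IFNg, 3 IL4 and 2 unstimulated libraries, with no allele or other agent named in the labels. The labels do not say whether libraries of a group came from separate mice or cultures, so the p-values below measure the spread between these libraries, which may be technical. The deposited values come from sequencing of transcript 3' ends and are on a log2 scale after quantile normalisation by the authors, where a difference of 1 is a doubling. The question is how the 2 stimuli, which are used to set classical and alternative activation, differ in the genes of this protease.

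The proteasome is the barrel-shaped protease that degrades proteins tagged with ubiquitin. Its core is built of alpha and beta rings, and the 19S cap unfolds substrates and feeds them in. Cells exposed to interferon can replace the constitutive active-site subunits Psmb5, Psmb6 and Psmb7 with Psmb8, Psmb9 and Psmb10, which gives the immunoproteasome, and can add the PA28 activator made of Psme1 and Psme2. The immunoproteasome is known for producing peptides that fit MHC class I molecules, and macrophages are among the cells that present such peptides.

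All 5 immunoproteasome members stood higher in every LPS plus IFNg library than in any IL4 or unstimulated library, at about 2-fold to 7-fold by group means. Over all genes tested, libraries separated in this way upward in 16.1% and downward in 20.7% of genes against unstimulated cells (36.7% in either direction), and in 12.4% and 14.8% against IL4 (27.1%). The plot of expression by library shows this for the 5 inducible genes beside constitutive counterparts and other activators. The 31 constitutive subunits had a median log2 difference of 0.22 between LPS plus IFNg and unstimulated cells. No member passed the threshold between IL4 and unstimulated cells (1.31% of all genes tested did).

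Psmb8, the inducible counterpart of the chymotrypsin-like subunit Psmb5, stood at 9.89, 9.91 and 10.09 in the LPS plus IFNg libraries. It stood at 7.86, 8.26 and 8.35 in the IL4 libraries and at 8.06 and 8.01 in the unstimulated ones. The LPS plus IFNg libraries were all high and close together, while the IL4 and unstimulated libraries overlapped. Psmb8 rose 3.82-fold against unstimulated cells (log2 difference 1.93, SE 0.20, limma adjusted p = 0.00256). Against IL4 it was higher by 3.5-fold (log2 difference 1.81, SE 0.18, limma adjusted p = 0.00113).

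Psmb9, the inducible counterpart of the caspase-like subunit Psmb6, stood at 8.32, 8.72 and 8.66 in LPS plus IFNg libraries. The IL4 libraries had 6.31, 5.75 and 6.57, and the unstimulated ones 5.81 and 5.56. Again each LPS plus IFNg library was above all others, and the IL4 and unstimulated ranges overlapped. Psmb9 had the largest difference of the 5 genes, 7.37-fold against unstimulated cells (log2 2.88, SE 0.32, limma adjusted p = 0.00302) and 5.12-fold against IL4 (log2 2.36, SE 0.29, limma adjusted p = 0.00253).

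Psmb10, the inducible counterpart of the trypsin-like subunit Psmb7, stood at 9.92, 9.98 and 10.23 in LPS plus IFNg libraries. IL4 libraries had 9.0, 9.27 and 8.63, and unstimulated libraries 7.77 and 8.35. The 3 groups did not overlap in this gene, with IL4 in between. Psmb10 rose 3.95-fold with LPS plus IFNg against unstimulated cells (log2 1.98, SE 0.26, limma adjusted p = 0.0057). Against IL4 it was 2.11-fold higher (log2 1.08, SE 0.24, limma adjusted p = 0.0251), a call lost without the intensity trend (adjusted p = 0.0657) and at adjusted p up to 0.0795 when libraries were left out. The IL4 difference from unstimulated cells, log2 0.90 (SE 0.26), did not pass (limma adjusted p = 0.201).

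Psme2, the PA28 beta subunit, stood at 11.61, 11.50 and 11.92 in LPS plus IFNg libraries, against 9.21, 10.09 and 9.54 with IL4 and 9.82 and 9.79 unstimulated. The LPS plus IFNg libraries were separate from the others, and the unstimulated values lay within the IL4 range. It rose 3.67-fold against unstimulated cells (log2 1.88, SE 0.28, limma adjusted p = 0.00776). That call was lost without unstimulated replicate 1 (adjusted p = 0.058) or unstimulated replicate 2 (adjusted p = 0.0742), which leaves 1 unstimulated library, assumed to vary like the other groups. Against IL4 it was 4.18-fold higher (log2 2.06, SE 0.25, limma adjusted p = 0.00231).

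Psme1, the PA28 alpha subunit, was more spread, at 10.62, 11.43 and 11.86 in LPS plus IFNg libraries, against 10.03, 9.19 and 9.90 with IL4 and 9.32 and 9.90 unstimulated. The lowest LPS plus IFNg library still lay above the highest of the others. The difference from unstimulated cells was 3.23-fold and did not pass (log2 1.69, SE 0.42, limma adjusted p = 0.0547). Against IL4 it was 3.02-fold higher and passed (log2 1.59, SE 0.37, limma adjusted p = 0.0325), though the adjusted p was up to 0.101 when 1 library was left out.

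**Figure D1:**
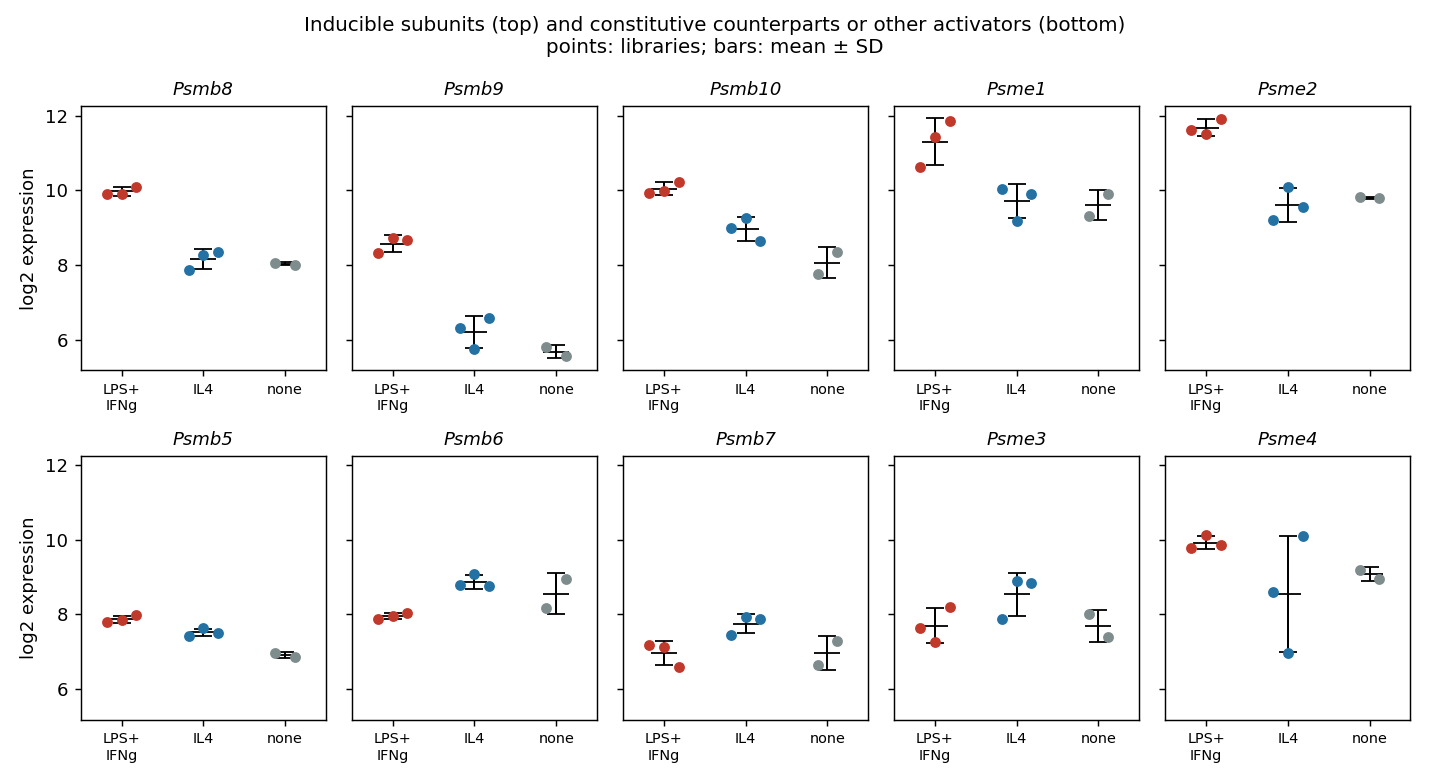
Log2 expression (y axis) of 10 proteasome genes in the LPS plus IFNg, IL4 and unstimulated (none) libraries; points are libraries and bars are the mean ± SD (n = 3, 3 and 2). The 5 inducible genes in the top row are higher in every LPS plus IFNg library than elsewhere, and the bottom row shows no such common pattern.

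The promoters of these 5 genes and of 2 constitutive counterparts are shown because the interferon-controlled factors are known to act at promoters. Each is the 150 bases before the RefSeq start on GRCm38.p6, read along the gene's own strand, with motif matches in capitals. Psmb8 and Psmb9 lie on chromosome 17, and Psme1, Psme2 and Psmb5 on chromosome 14.
Psmb8, chr17:34198045-34198194, plus strand: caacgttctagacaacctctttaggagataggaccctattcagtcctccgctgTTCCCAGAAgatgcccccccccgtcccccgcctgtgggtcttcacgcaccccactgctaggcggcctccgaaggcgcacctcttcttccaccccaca
Psmb9, chr17:34187331-34187480, minus strand: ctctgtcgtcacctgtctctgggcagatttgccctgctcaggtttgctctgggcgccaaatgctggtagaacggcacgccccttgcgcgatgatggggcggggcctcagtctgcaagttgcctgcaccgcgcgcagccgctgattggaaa
Psmb10, chr8:105938393-105938542, minus strand: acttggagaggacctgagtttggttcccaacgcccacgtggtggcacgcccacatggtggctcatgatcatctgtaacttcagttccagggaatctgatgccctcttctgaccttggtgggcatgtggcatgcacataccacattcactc
Psme1, chr14:55578344-55578493, plus strand: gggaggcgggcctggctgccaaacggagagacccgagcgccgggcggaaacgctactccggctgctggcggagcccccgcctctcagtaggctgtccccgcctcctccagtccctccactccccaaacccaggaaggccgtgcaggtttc
Psme2, chr14:55591102-55591251, minus strand: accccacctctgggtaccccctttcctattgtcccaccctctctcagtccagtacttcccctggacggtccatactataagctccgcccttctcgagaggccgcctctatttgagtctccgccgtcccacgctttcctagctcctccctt
Psmb5, chr14:54617996-54618145, minus strand: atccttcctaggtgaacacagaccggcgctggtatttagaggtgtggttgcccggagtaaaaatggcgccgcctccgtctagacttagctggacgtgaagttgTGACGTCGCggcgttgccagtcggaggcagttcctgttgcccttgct
Psmb6, chr11:70525207-70525356, plus strand: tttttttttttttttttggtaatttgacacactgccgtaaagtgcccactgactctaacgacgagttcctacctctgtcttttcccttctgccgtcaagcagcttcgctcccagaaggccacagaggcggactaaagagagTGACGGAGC

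In these stretches the Psmb8 capitals mark a GAS motif (interferon gamma-activated site), TTCNNNGAA. The capitals in Psmb5 and Psmb6 mark an antioxidant response element (ARE), TGACNNNGC or TGAGNNNGC, the form bound by NFE2L1 and NFE2L2. Annotated starts differ between sources. The GENCODE start of the matching transcript lies 405 bases upstream for Psmb8, 434 for Psmb9, 134 for Psme1, 52 for Psmb10 and 27 for Psmb5. The windows searched below reach 250 bases before the RefSeq start. For Psmb8 and Psmb9 they therefore lie wholly downstream of the GENCODE start, as does the Psmb8 GAS match. The bases before that start were not searched in these genes. It lies downstream by 14 bases for Psme2 and 29 for Psmb6.

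Motifs were searched on both strands of 300-base windows, which run 50 bases past the start, for the 41 members in the promoter table and for all 27025 genes in it. GAS was found in 3 members (7.32%: Psmb8, Psmd2 and Psmg1) and in 8.47% of all windows. The interferon-stimulated response element (ISRE) (GAAA, any 2 bases, GAAA) was found in 5 members (12.2%) and in 3.49% of all windows. The members were Psmb3, Psmd4 and Psmd9 and, downstream of their starts, Psme1 and Psmg4. Between LPS plus IFNg and unstimulated cells the log2 differences of Psmb3, Psmd4, Psmd9 and Psmg4 were -0.40, 0.02, -0.21 and -0.46. That of Psme1 was 1.69, and none of these passed. ARE was found in 16 members (39%), none of them among the 5 immunoproteasome genes, and in 27.7% of all windows; its 2 forms were counted together. The NF-kB motifs (GGGA, then CT or AT, then TTCC) were found in no member and in 0.233% of all windows. A match describes letters in a window and is not a measured site, and matches of the 4 motifs may overlap.

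Psmb5, which carries the constitutive chymotrypsin-like site, stood at 7.79, 7.84 and 7.99 in LPS plus IFNg libraries, against 7.43, 7.64 and 7.50 with IL4 and 6.98 and 6.85 unstimulated. The 3 groups did not overlap. It rose 1.95-fold with LPS plus IFNg against unstimulated cells (log2 0.96, SE 0.21, limma adjusted p = 0.033), and the adjusted p was up to 0.0899 when 1 library was left out. With IL4 it was 0.61 above unstimulated cells on the log2 scale, which did not pass (limma adjusted p = 0.281).

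Psmb6, the constitutive caspase-like subunit, stood at 7.87, 7.96 and 8.04 in LPS plus IFNg libraries, against 8.79, 9.08 and 8.75 with IL4 and 8.16 and 8.94 unstimulated. LPS plus IFNg libraries were the lowest. Against IL4 Psmb6 was lower at 0.53 of the level (log2 -0.92, SE 0.23, limma adjusted p = 0.0441), but scaling to housekeeping genes gave -0.29 and scaling to ribosomal protein genes turned it to 0.56. With 1 library left out the adjusted p was up to 0.116. Against unstimulated cells its log2 difference was -0.59, not past the threshold (limma adjusted p = 0.276), and it turned to 0.17 with the housekeeping and 0.87 with the ribosomal protein scaling.

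Psmb7, the constitutive trypsin-like subunit, stood at 7.17, 7.12 and 6.59 in LPS plus IFNg libraries, against 7.45, 7.93 and 7.88 with IL4 and 6.65 and 7.30 unstimulated. Its IL4 libraries were the highest. None of its differences passed: log2 -0.01 for LPS plus IFNg and 0.78 for IL4 against unstimulated cells, and -0.79 for LPS plus IFNg against IL4 (limma adjusted p = 1.0, 0.405 and 0.138).

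The transcript level of an inducible subunit relative to its constitutive counterpart can be read within a library, where a shift of all its values cancels. Exchange of the subunits in the assembled protein was not measured. Only the shift between groups is read, since the level of one gene over another can depend on 3' end capture. Psmb8 minus Psmb5 was 2.10, 2.07 and 2.10 log2 units in LPS plus IFNg libraries, 0.43, 0.62 and 0.85 with IL4, and 1.08 and 1.16 unstimulated. The LPS plus IFNg libraries were highest and the IL4 libraries lowest, without overlap. The group means differed by 0.97 between LPS plus IFNg and unstimulated cells, and by -0.49 between IL4 and unstimulated cells.

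Psmb9 minus Psmb6 was 0.45, 0.76 and 0.62 in LPS plus IFNg libraries, -2.48, -3.33 and -2.18 with IL4, and -2.35 and -3.38 unstimulated. This pair had the largest shift of the 3, 3.48 against unstimulated cells and 3.27 against IL4, with the other groups overlapping each other. Psmb10 minus Psmb7 was 2.75, 2.86 and 3.65 with LPS plus IFNg, 1.55, 1.33 and 0.75 with IL4, and 1.12 and 1.05 unstimulated. Its shift was 2.0 against unstimulated cells and 1.87 against IL4, and IL4 and unstimulated libraries overlapped.

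The exact two-sided permutation test gave p = 0.2 for each of the 3 pairs between LPS plus IFNg and unstimulated libraries, the smallest that 3 against 2 libraries allow. Against IL4 the exact permutation p was 0.1 for each, the smallest that 3 against 3 libraries allow. Between IL4 and unstimulated libraries the exact permutation p was 0.2 for Psmb8 minus Psmb5 and 0.8 for the other pairs. Adjusted over the 9 comparisons, these became 0.257 or 0.8, so the design could not reach 0.05 for any pair. As a description, the mean of the 5 inducible genes less the median of the 31 constitutive ones was 1.39, 1.99 and 2.0 in LPS plus IFNg libraries, 0.15, -0.29 and -0.01 with IL4, and -0.04 and 0.35 unstimulated.

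**Figure D2:**
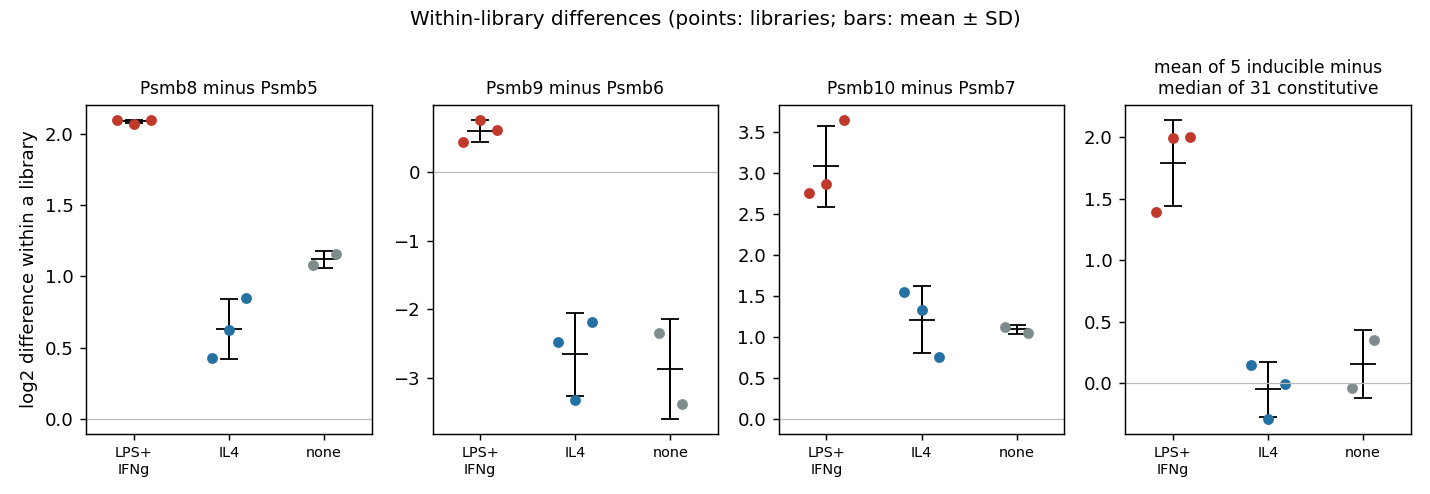
Log2 difference within a library (y axis) for 3 inducible and constitutive pairs, and for the mean of the 5 inducible genes less the median of 31 constitutive ones; points are libraries, bars are the mean ± SD (n = 3, 3 and 2), and each panel has its own y scale. In every panel the LPS plus IFNg libraries lie above the IL4 and unstimulated (none) ones.

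Over the whole family, 7 of the 48 tested members rose with LPS plus IFNg against unstimulated cells and 0 fell. Over all genes tested in that comparison, 3.72% rose and 4.25% fell. The 7 were Psmb8, Psmb9, Psmb10, Psme2, Psmb5, Psma5 and Psma8. The family median was 0.35, beside -0.04 for all genes tested. With the 2 compared groups alone in the fit, the call was kept by 4 of them, Psmb8, Psmb9, Psmb10 and Psme2. Scaling to ribosomal protein genes called 39 members higher, along with 28.8% of all genes tested and 47.8% of those with a mean of at least 5.

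Markers of other cells and of cell division also moved with the stimuli, and their part in these results was not tested. All 6 proliferation genes were in the table, with summed linear levels of 98.6 to 141 in LPS plus IFNg libraries, 1500 to 2190 with IL4 and 2220 to 3050 unstimulated, and Ccna2 at 0 with LPS plus IFNg. The 8 neutrophil and precursor markers summed to 201 to 293 with LPS plus IFNg, 936 to 1660 with IL4 and 2110 to 2350 unstimulated. Most of each of these sums was S100a8 and S100a9. Mpo was at 0 with LPS plus IFNg. Prtn3 was at 0 with LPS plus IFNg and with IL4, and at 0.74 and 0.37 unstimulated. The 5 dendritic markers summed to 102 to 173 with LPS plus IFNg, 1020 to 1430 with IL4 and 366 to 417 unstimulated. Most of each sum was Itgax alone, at 9.99, 10.47 and 9.96 on the log2 scale with IL4. In those libraries Zbtb46 stood at 4.90, 3.97 and 4.62, and Flt3 at 4.74, 0 and 0. Flt3 and Zbtb46 were at 0 with LPS plus IFNg, and Ccr7 and Xcr1 at 0 in the other groups. The 5 fibroblast markers summed to 1210 to 2370 with LPS plus IFNg, 1130 to 1670 with IL4 and 2360 to 3140 unstimulated. The 8 lymphocyte markers summed to 8.93 to 14.3 with LPS plus IFNg, 0 to 48.9 with IL4 and 1.54 to 3.82 unstimulated, with Cd3e, Cd8a and Ncr1 at 0 everywhere, and the 4 mast cell markers reached at most 19.6.

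Of 8 macrophage markers 7 were in the table and none was at 0 in a group. They summed to 10500 to 12000 with LPS plus IFNg, 7820 to 11400 with IL4 and 13600 to 14400 unstimulated. Single markers moved more than these sums. Against unstimulated cells, Fcgr1 differed by log2 2.83 with LPS plus IFNg and -3.48 with IL4 (limma adjusted p = 0.0259 and 0.0392). Cd14 and Mertk differed by -2.87 and -1.64 with IL4 (limma adjusted p = 0.0315 and 0.0272). Csf1r differed by -1.10 with LPS plus IFNg (limma adjusted p = 0.0183). No other difference of these markers from unstimulated cells passed. In such bulk samples, fewer cells of a type and less RNA per cell cannot be told apart. Genes listed at 0 numbered 9606 to 9627 per LPS plus IFNg library, 9846 to 10210 per IL4 library, and 8219 and 9230 in the unstimulated ones. Genes below 0 numbered 128 to 158, 74 to 123, and 202 and 140 in the same order, so 0 is not the lowest value. Depth is unknown from such values.

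The 31 constitutive subunits had a median log2 difference of 0.22 (range -0.59 to 1.47) between LPS plus IFNg and unstimulated cells. Of these differences 21 were above 0 (67.7%, beside 45.9% of all genes tested) and 10 below. Of the 31, 2 rose (Psmb5 and Psma5, 6.45%) and 0 fell, beside 3.72% and 4.25% of all genes tested. The median of 0.22 depends on scaling, and so do the signs: all 31 differences were above 0 with either scaling below. Of all genes with a mean of at least 5, 78.3% were above 0 with the housekeeping and 91.9% with the ribosomal protein scaling. Equal means of 11 housekeeping genes put the median of all genes at 0.57, against -0.04 as deposited, and that of the constitutive subunits at 0.99. Equal means of 78 ribosomal protein genes put them at 1.18 and 1.69. The median of all genes with a mean of at least 5 was -0.09 as deposited, 0.67 with the housekeeping and 1.37 with the ribosomal protein scaling. The median of the 5 immunoproteasome members was 1.93 as deposited, 2.70 with the housekeeping and 3.40 with the ribosomal protein scaling, above the constitutive median each time.

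In the alpha ring, which gates the core, all 7 differences from unstimulated cells were above 0 with LPS plus IFNg, with a median of 0.42. Psma5 was the member that passed, with 7.69, 8.30 and 7.89 in LPS plus IFNg libraries, against 7.12, 6.89 and 6.89 with IL4 and 6.42 and 6.90 unstimulated. The LPS plus IFNg libraries were separate from the rest, which overlapped. Psma5 rose 2.46-fold against unstimulated cells (log2 1.30, SE 0.29, limma adjusted p = 0.0358) and was 1.99-fold higher than with IL4 (log2 0.99, SE 0.26, limma adjusted p = 0.0452). Leaving out 1 library raised the adjusted p to as much as 0.14 in the first and 0.141 in the second.

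Among the beta subunits without an active site in the mature core (Psmb1 to Psmb4), the median difference from unstimulated cells was -0.03. Psmb3 stood at 10.79, 10.89 and 10.96 in LPS plus IFNg libraries, against 11.96, 11.96 and 11.39 with IL4 and 11.27 and 11.29 unstimulated. Its LPS plus IFNg libraries were the lowest and its IL4 libraries the highest, without overlap. Against IL4 Psmb3 was lower at 0.541 of the level (log2 -0.89, SE 0.20, limma adjusted p = 0.0262), while the housekeeping scaling gave -0.27 and the ribosomal protein scaling turned it to 0.59. With 1 library left out the adjusted p was up to 0.0821.

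In the 19S cap no member passed in any comparison on the deposited scale. With housekeeping scaling 2 of the 6 ATPases and 3 of the 11 other cap subunits passed as higher with LPS plus IFNg than in unstimulated cells. So did 8.92% of all genes and 14.1% of those with a mean of at least 5. With ribosomal protein scaling 6 and 9 of them passed, beside 28.8% of all genes and 47.8% of those with a mean of at least 5. The 6 ATPases, Psmc1 to Psmc6, which unfold substrates, had a median difference of 0.44 from unstimulated cells with LPS plus IFNg, and the 11 other cap subunits had one of 0.08. Psmd14, the deubiquitinase of the cap, stood at 7.52, 7.15 and 7.72 with LPS plus IFNg, 7.83, 7.93 and 6.92 with IL4, and 5.78 and 6.52 unstimulated. Both stimuli lay above the unstimulated libraries, at log2 1.32 for LPS plus IFNg and 1.41 for IL4, and neither passed (limma adjusted p = 0.11 and 0.19). Psmd11, a scaffold subunit of the lid, stood at 9.75, 9.0 and 7.94 with LPS plus IFNg, 8.10, 8.18 and 8.07 with IL4, and 7.35 and 7.52 unstimulated, and its difference from unstimulated cells of 1.47 with LPS plus IFNg did not pass (limma adjusted p = 0.122), but did with the lowest 25% of genes left out (adjusted p = 0.0428) and, at 1.95, without LPS plus IFNg replicate 3 (adjusted p = 0.0166). Psmd3, another lid subunit, differed by 0.99 between IL4 and unstimulated cells (limma adjusted p = 0.608), with IL4 libraries between 6.05 and 8.46.

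**Figure D3:**
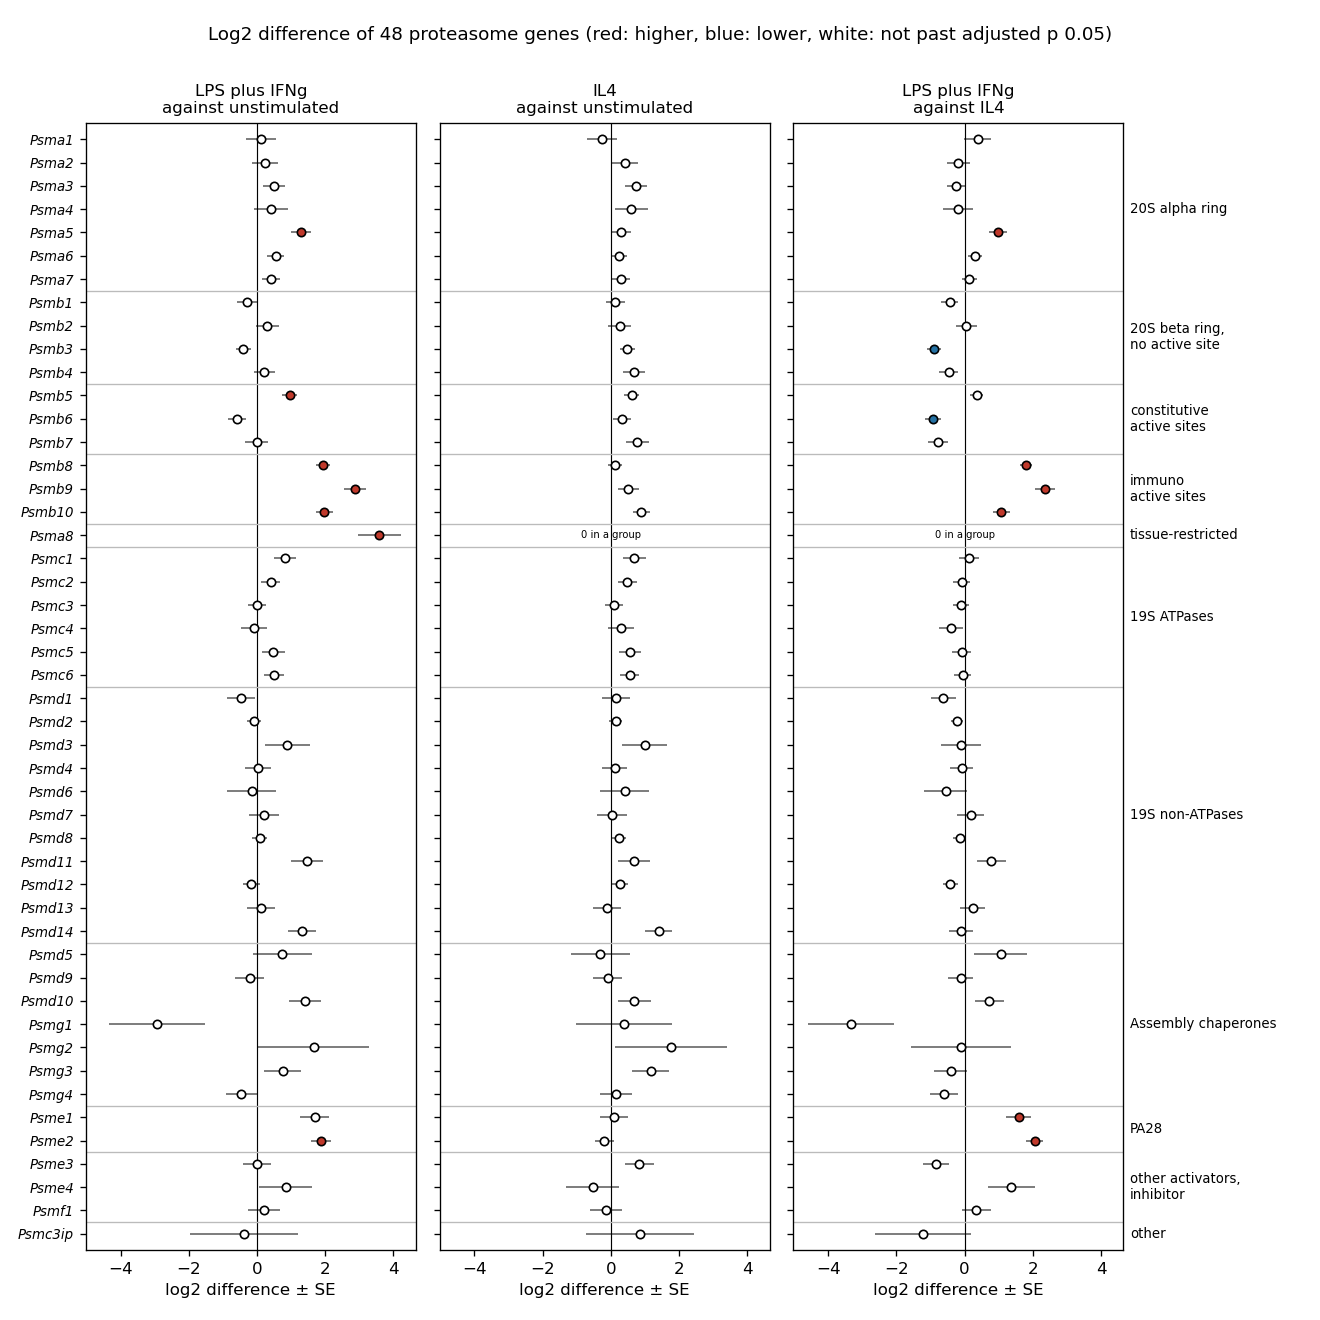
Log2 difference ± SE (x axis) of the 48 tested genes in 3 comparisons, by role; red is higher and blue is lower past an adjusted p of 0.05, white is not past it, and no value is drawn where a group was at 0 in every library. Past the threshold are 7 genes in the left panel, 0 in the middle one, and 7 higher and 2 lower in the right one, where the Psma8 call is not drawn.

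None of the other regulators of the core passed. Psme3, the nuclear PA28 gamma activator, stood at 7.65, 7.26 and 8.19 with LPS plus IFNg, 7.88, 8.89 and 8.85 with IL4, and 8.0 and 7.40 unstimulated. Its log2 difference from unstimulated cells was 0.84 with IL4 (limma adjusted p = 0.488), and LPS plus IFNg against IL4 gave -0.84 (limma adjusted p = 0.214). Psme4, the PA200 activator, stood at 9.79, 10.12 and 9.85 with LPS plus IFNg, 8.60, 6.96 and 10.09 with IL4, and 9.20 and 8.95 unstimulated. The IL4 libraries of Psme4 were the most spread, and its difference of 1.37 between LPS plus IFNg and IL4 did not pass (limma adjusted p = 0.272). Psmf1, which encodes the proteasome inhibitor PI31, lay between 4.78 and 5.64 in all libraries, with overlapping groups.

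No assembly chaperone passed in a comparison, and several were low and spread. Psmg1, which helps build the alpha ring with Psmg2, stood at 4.12, 0.62 and 5.04 with LPS plus IFNg, 7.05, 7.70 and 4.97 with IL4, and 5.56 and 6.83 unstimulated. It was lower in each LPS plus IFNg library than in either unstimulated one, but the difference of -2.94 (limma adjusted p = 0.32) shrank to -1.62 without LPS plus IFNg replicate 2, and against IL4 it was -3.32 (limma adjusted p = 0.153) with overlap. Psmg2 ranged from 2.91 to 5.41 with LPS plus IFNg, 2.89 to 6.58 with IL4, and 0.62 to 4.91 unstimulated. For Psmg2 the log2 differences from unstimulated cells, 1.66 with LPS plus IFNg and 1.77 with IL4, had an SE of 1.64 each (limma adjusted p = 0.643 and 0.728).

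Psmg3, which acts with Psmg4 on the alpha ring, differed from unstimulated cells by 0.76 with LPS plus IFNg and 1.17 with IL4 (limma adjusted p = 0.523 and 0.457). Psmg4 differed by -0.46 with LPS plus IFNg and 0.15 with IL4 (limma adjusted p = 0.653 and 0.985). Of the chaperones of the ATPase ring, Psmd10 (gankyrin) stood at 8.98, 7.89 and 7.40 with LPS plus IFNg, 7.60, 6.96 and 7.53 with IL4, and 6.46 and 6.89 unstimulated. The unstimulated libraries were the lowest, and the LPS plus IFNg difference of 1.41 from them did not pass (limma adjusted p = 0.143). Psmd5 ranged from 5.72 to 8.61 over the stimulated libraries, with a difference of 1.06 between LPS plus IFNg and IL4 (limma adjusted p = 0.482), and Psmd9 differed from unstimulated cells by -0.21 with LPS plus IFNg and -0.09 with IL4.

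Psma8, an alpha-type subunit known from testis, was low but detected with LPS plus IFNg, at 4.53, 3.95 and 4.18. It was listed at 0 in all 3 IL4 libraries and stood at 0.12 and 1.15 in the unstimulated ones. The LPS plus IFNg libraries were separate from the others. Psma8 rose by 3.59 on the log2 scale against unstimulated cells (SE 0.63, limma adjusted p = 0.0149), a size that is uncertain from values so near 0. The call was lost with the compared groups alone in the fit (adjusted p = 0.0602). Against IL4 it passed (limma adjusted p = 0.0034), and no fold is given because IL4 is at 0. Psmb11, known from thymic epithelium, was at 0 throughout, and Psmc3ip was at 0 in 4 libraries and at most 5.17 in IL4 replicate 3, with a difference of -1.23 between LPS plus IFNg and IL4 (limma adjusted p = 0.627).

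Against IL4, 7 of 48 members were higher with LPS plus IFNg (Psmb8, Psmb9, Psmb10, Psme1, Psme2, Psma5 and Psma8) and 2 were lower (Psmb3 and Psmb6). Over all genes tested, 5.91% were higher and 6.96% lower in that comparison. The family median was -0.09, that of the constitutive subunits -0.10, and that of the 5 immunoproteasome members 1.81, beside 0.00 for all genes. This comparison shares its libraries with the other 2, so the lists of calls are not independent.

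With IL4 against unstimulated cells, 0 of 48 members passed in limma, and 5 had an unadjusted p under 0.05. Over all genes tested 1.31% passed (0.514% higher and 0.793% lower) and 12.1% had such an unadjusted p. The constitutive subunits nevertheless lay mostly on one side: 29 of 31 log2 differences were above 0, with a median of 0.32, and in 10 of the 31 every IL4 library stood above both unstimulated ones, which held for 11.7% of all genes tested, with 14.7% separated downward (26.5% in either direction). Among all genes with a mean of at least 5, 47.6% were above 0, with a median of -0.03, and 16.2% were separated upward in this way. All members share the same 5 libraries, so their common side is a description of these libraries, and with housekeeping scaling the constitutive median was 0.46 beside 0.09 for all genes.

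The partners and controllers of the proteasome, with 24 of 26 listed genes in the table, had a median log2 difference of -0.18 between LPS plus IFNg and unstimulated cells. In that comparison 1 of 24 rose (4.17%, beside 3.72% of all genes tested) and 0 fell. The gene that rose was Nfe2l1, the transcription factor that raises proteasome subunit genes when the proteasome is impaired, at 10.41, 10.62 and 11.13 with LPS plus IFNg, 9.82, 9.80 and 8.96 with IL4, and 9.44 and 9.28 unstimulated. LPS plus IFNg libraries were the highest. Its log2 difference was 1.36 against unstimulated cells (SE 0.33, limma adjusted p = 0.0492) and 1.20 against IL4 (SE 0.29, limma adjusted p = 0.038), with adjusted p up to 0.276 and 0.104 when 1 library was left out.

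Pomp, the chaperone that matures the beta ring, stood at 9.63, 9.64 and 9.64 with LPS plus IFNg, 9.34, 10.29 and 9.44 with IL4, and 9.80 and 9.62 unstimulated. Its difference from unstimulated cells was -0.07 (limma adjusted p = 0.949), turned to 0.69 by the housekeeping and 1.39 by the ribosomal protein scaling. Against IL4, 1 of the 24 was higher with LPS plus IFNg and 1 lower (4.17% each, beside 5.91% and 6.96% of all genes tested). The lower one was Ube3c, a ubiquitin ligase bound to the proteasome (log2 -2.01, SE 0.43, limma adjusted p = 0.023). Its difference weakened to -0.54 with the ribosomal protein scaling (adjusted p = 0.371). With 1 library left out it ranged from -2.21 to -1.64, and the call was not kept in every such fit. In IL4 against unstimulated cells 0 of the 24 passed in limma, and 1 had an unadjusted p under 0.05. Over all genes tested the shares were 1.31% and 12.1%.

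Of the genes that handle peptides after the proteasome, 17 of 18 were in the table. With LPS plus IFNg against unstimulated cells 6 of 17 rose (35.3%) and 1 fell (5.88%), beside 3.72% and 4.25% of all genes tested. With low values damped 5 rose and 0 fell. Tapbpl, which edits peptides on MHC class I, stood at 10.51, 10.21 and 9.84 with LPS plus IFNg, 6.27, 5.91 and 5.78 with IL4, and 6.15 and 6.05 unstimulated, a log2 difference of 4.08 from unstimulated cells (SE 0.28, limma adjusted p = 0.000597). Tap1 and Tap2, the peptide transporter of the endoplasmic reticulum, differed by 3.07 (SE 0.63, limma adjusted p = 0.0279, up to 0.177 with 1 library left out) and by 2.76 (SE 0.31, limma adjusted p = 0.00302). Thop1, a cytosolic peptidase, was at 0 in each LPS plus IFNg library, against 3.28, 3.21 and 5.50 with IL4 and 3.54 and 4.41 unstimulated (limma adjusted p = 0.0484 against unstimulated cells). This call, which rests on values near 0, was lost with low values damped and with housekeeping scaling. B2m, the light chain of MHC class I, differed by 0.92 (limma adjusted p = 0.102).

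Against IL4, 7 of these 17 genes were higher with LPS plus IFNg (41.2%) and 2 lower (11.8%), beside 5.91% and 6.96% of all genes tested, led by Tap1 (log2 4.45, SE 0.56, limma adjusted p = 0.00278) and Tapbpl (log2 4.20, SE 0.25, limma adjusted p = 0.000169). With IL4 against unstimulated cells 0 of the 17 passed in limma, and 7 had an unadjusted p under 0.05. Over all genes tested the shares were 1.31% and 12.1%.

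Of 10 genes that control the immunoproteasome genes in the interferon response, 3 rose with LPS plus IFNg against unstimulated cells and 1 fell (30% and 10%, beside 3.72% and 4.25% of all genes tested). Irf1, a transcription factor induced by interferon gamma, stood at 12.16, 12.01 and 12.14 with LPS plus IFNg, 7.78, 7.26 and 6.28 with IL4, and 7.97 and 8.28 unstimulated. Irf1 thus rose by 3.97 on the log2 scale (SE 0.40, limma adjusted p = 0.0023). Jak2, a kinase of the interferon gamma receptor, rose by 3.14 (SE 0.37, limma adjusted p = 0.00359). Ifngr1, the receptor chain that binds interferon gamma, fell by 2.19 (SE 0.36, limma adjusted p = 0.0123), weakened to -0.72 with the ribosomal protein scaling. Nlrc5, a transactivator of MHC class I genes, stood at 7.64, 7.55 and 8.52 with LPS plus IFNg, 0, 0 and 4.50 with IL4, and 4.50 and 4.74 unstimulated, a difference of 3.28 from unstimulated cells that did not pass (limma adjusted p = 0.249).

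In IL4 against unstimulated cells, Jak2 was the 1 gene of the 10 that passed (log2 2.14, SE 0.37, limma adjusted p = 0.0461), with adjusted p up to 0.187 when 1 library was left out. Over all genes tested, 0.514% were higher and 0.793% lower in that comparison. Against IL4, 5 of the 10 were higher with LPS plus IFNg and 1 was lower (50% and 10%, beside 5.91% and 6.96% of all genes tested). Irf1 differed by 4.99 (SE 0.36, limma adjusted p = 0.000301). Nlrc5 differed most of the 10, by 6.40 (SE 1.23, limma adjusted p = 0.0149). That size is uncertain, because its IL4 libraries stood at 0, 0 and 4.50. The Nlrc5 difference ranged from 5.65 to 7.9 with 1 library left out, and its call was not kept in every such fit.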

How the data were processed

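Macrophages were measured in 8 libraries from barcoded oligo-dT cDNA, pooled by Actb qPCR and sequenced at transcript 3' ends, per the labels' protocols. TopHat and the build mm9 are named per the submitters' processing notes. Neither the counting tool nor the handling of zero counts is given in the sources used here. The authors deposited 1 table of log2 values, quantile normalised per its name, with 20259 rows. Quantile normalisation can hide overall shifts, and depth is unknown.

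Columns were matched to samples by label. After leaving out 6643 genes with 1 value everywhere and 1 unnamed row, 13615 genes were fitted with limma 3.58.1 in R 4.3.3 (all 8 libraries, a mean per group, intensity trend, 5 residual degrees of freedom). Tests were two-sided, adjusted by Benjamini and Hochberg over all 13615, with calls at 0.05. The fit was tested on simulated data.

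Members and lists were chosen with earlier results of these data known. Named were the immunoproteasome members, their counterparts, other activators, chaperones, tissue-restricted members, every called member, the 5 largest uncalled ones per comparison, and from each list up to 4 called genes and 1 uncalled; 1 gene that this takes is not reported here. Promoters come from RefSeq (GRCm38.p6), which held 41 of 49 members. Alternatives changed the trend, the libraries in the fit, low values, scaling, and the replicate block.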

Additional observations from a re-analysis of the deposited data

How the results depend on the processing

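The number of members called between LPS plus IFNg and unstimulated cells, 7 as reported, was 4 with the compared groups alone in the fit, 4 with a replicate block, 16 with housekeeping scaling (8.92% of all genes were higher) and 39 with ribosomal protein scaling (28.8%), and 4 to 8 when 1 library was left out. Between LPS plus IFNg and IL4, 9 as reported, it was 4 without the intensity trend, 4 with a replicate block, 36 with ribosomal protein scaling (34.7% of all genes were higher), and 4 to 7 when 1 library was left out. It stayed at 0 between IL4 and unstimulated cells in every setting run. Among genes with a mean of at least 5, 14.1% were higher against unstimulated cells with housekeeping and 47.8% with ribosomal protein scaling. Against IL4, 56.3% of them were higher with ribosomal protein scaling. Except for the scalings and the fits with fewer libraries, the cause of the shifts in the number called was not tested.

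Psmb8, Psmb9, Psmb10 and Psma8 against unstimulated cells, and Psmb8, Psmb9 and Psme2 against IL4, kept their calls with each library left out. Some of these fits leave 1 unstimulated library. The Psma8 difference ranged from 3.07 to 4.1 in them, from values near 0. Its call was lost with the compared groups alone in the fit. Psme1 against unstimulated cells passed with the lowest 25% of genes left out (adjusted p = 0.00908), with housekeeping scaling (0.0156) and with ribosomal protein scaling (0.0011), and reached 0.293 with 1 library left out.

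Scaling turned many directions. With housekeeping scaling 31 of the 31 constitutive subunits were above 0 against unstimulated cells (21 as deposited) and 28 against IL4 (10 as deposited). Of all genes with a mean of at least 5, this scaling put 78.3% and 72.5% above 0 in these comparisons. It gave Psmb6 0.17, Psmb3 0.36, Psmd12 0.60 and Psmd1 0.30 against unstimulated cells. Ribosomal protein scaling, in which values listed at 0 stayed at 0, also turned Psmd1 to 1.0, not past the threshold. Its shifts, 0.854 to 0.983 in LPS plus IFNg libraries and -0.722 to -0.45 in the others, raise LPS plus IFNg values above 0 relative to the others by construction. Reversed calls, or genes that came to pass in the opposite direction, arose with ribosomal protein scaling. Against unstimulated cells these log2 differences became Psmb6 0.87, Psmb3 1.06, Psme3 1.46, Psmd12 1.30, Psmd2 1.39, Psmb1 1.17, Psmb7 1.45, Psmc3 1.46, Psmc4 1.38 and Pomp 1.39. Against IL4 they became Psmb6 0.56, Psmb3 0.59, Psmc5 1.39, Psmd12 1.05, Psma3 1.23, Psma2 1.29, Psmc6 1.42, Psmd2 1.25, Psmb1 1.05, Psmd14 1.38, Psmc3 1.37, Psmb4 1.01, Psmd4 1.38, Psmc2 1.38, Psmd9 1.35, Psmd8 1.33, Psma4 1.28 and Pomp 1.42. Psmb6, called lower than with IL4 as deposited, changed sign here but did not pass as higher.

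With 1 library left out, the LPS plus IFNg difference from unstimulated cells ranged from 0.93 to 1.01 for Psmb8 minus Psmb5, 2.96 to 3.99 for Psmb9 minus Psmb6 and 1.72 to 2.16 for Psmb10 minus Psmb7. Against IL4 these ranges were 1.36 to 1.57, 2.94 to 3.52 and 1.59 to 2.04. Between IL4 and unstimulated cells they were -0.6 to -0.39, -0.31 to 0.72 and -0.05 to 0.35. Same-numbered libraries did not deviate together (correlations of -0.045 to 0.029), so the replicate block does not rest on a known pairing. With 2 or 3 libraries per group, differences near 2-fold can be missed, and low values such as those of Psmg1, Psmg2 and Psma8 carry large errors.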
